A study of Homo sapiens with 12 samples.

Results

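The collagen chain genes are the protein-coding genes whose symbol in the deposited FPKM table is COL, a number, A and a number, and 44 of the 58735 genes in the table met that rule. RNA was sequenced from 2 cell lines labelled Huh7 and HepG2, which the labels call human hepatoma lines. Each was kept for 48 h without treatment or with geniposide, an iridoid glycoside of gardenia fruit, at a dose that the sources used here do not give. The 4 groups (untreated and geniposide-treated Huh7, untreated and geniposide-treated HepG2) hold 3 libraries each. The labels do not say whether the libraries of a group came from separate cultures, so the p-values measure only the spread between these libraries, which may be technical.

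Collagens are the main structural proteins of the extracellular matrix. Their chains are folded in the endoplasmic reticulum into helical trimers, hydroxylated and glycosylated, secreted, trimmed and cross-linked. Fibril-forming collagens make the cables of connective tissue, type IV collagen makes the sheet of basement membranes, type VI makes beaded filaments around cells, and the fibril-associated, multiplexin and transmembrane collagens link these networks to each other and to cells. In liver, hepatic stellate cells and fibroblasts are known as the main source of fibrillar collagen in scarring, while endothelial and epithelial cells contribute basement membrane chains.

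Levels are the authors' deposited FPKM (fragments per kilobase of gene length, divided by a library total), with mean ± SD over the 3 libraries of a group. The libraries held 15056655 to 17211659 fragments. The Huh7-labelled geniposide replicate 3 stood apart: its counts differed from those of the other two libraries of its group by a chi-square per degree of freedom of 38.9 and 40.0, beside 2.87 between those others. In the HepG2-labelled geniposide group replicate 3 stood apart by less, at 5.45 and 6.06, beside 2.36 between the others. In the untreated groups this value lay between 2.15 and 2.57. The main counts of genes that passed with geniposide in the Huh7-labelled cells are given with and without geniposide replicate 3 of that line. Other results of that group include this library unless stated. Markers of the labelled cell type were at or near 0: none of 12 hepatocyte genes reached 1 FPKM in any group, their summed level was 0.278 to 0.711 FPKM per library, and APOB had 0 fragments in all 12 libraries. The libraries are called by their labels on that understanding. None of 8 endothelial markers reached 1 FPKM in any group. Among 13 markers of fibroblasts and stellate cells, 3 reached 1 FPKM in untreated Huh7-labelled and 7 in untreated HepG2-labelled libraries, with summed levels of 64.7 to 65.7 and 642 to 665 FPKM, most of the latter from S100A4 at 521 FPKM. With geniposide these sums were 33.1 to 66.4 and 534 to 574 FPKM. Of 8 epithelial markers, 2 reached 1 FPKM in untreated Huh7-labelled and 6 in untreated HepG2-labelled libraries. The 8 summed to 36.6 to 38.2 and 933 to 964 FPKM untreated and to 28.0 to 28.9 and 435 to 476 FPKM with geniposide. In untreated Huh7-labelled libraries the 2 were KRT8 at 20.5 and KRT18 at 15.5 FPKM. In untreated HepG2-labelled ones the 6 were KRT8 at 336, KRT18 at 321, KRT7 at 279, CLDN1 at 8.23, CLDN4 at 2.43 and KRT19 at 1.01 FPKM. There EPCAM and CDH1 were 0.0460 and 0.0511 FPKM. The part of these markers in the collagen results was not tested. The other 6 of the 7 fibroblast and stellate markers in untreated HepG2-labelled libraries were VIM at 77.2, LUM at 35.4, DCN at 6.32, TAGLN at 4.49, PDGFRB at 4.33 and ACTA2 at 1.26 FPKM, while PDGFRA and POSTN had 0 fragments there. In such bulk samples fewer cells of a type and less RNA per cell cannot be told apart.

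Which collagen chains did these cells express at all? A group mean of 1 FPKM or more was reached by 25 of the 44 genes in some group, while 19 stayed below 1 FPKM in every group and 10 of those below 0.1 FPKM. COL1A2, the partner of COL1A1 in ordinary type I collagen, and COL22A1 had 0 fragments in all 12 libraries. For COL1A2 that allows at most 0.0144 to 0.0190 FPKM per library, the level of 3 fragments, a limit that covers counting error only. Untreated, 11 of the genes reached 1 FPKM in both lines, 5 did so only in the Huh7-labelled, 8 only in the HepG2-labelled libraries and 20 in neither. A level of 10 FPKM was passed by 3 genes in untreated Huh7-labelled and 10 in untreated HepG2-labelled libraries.

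**Figure D1:**
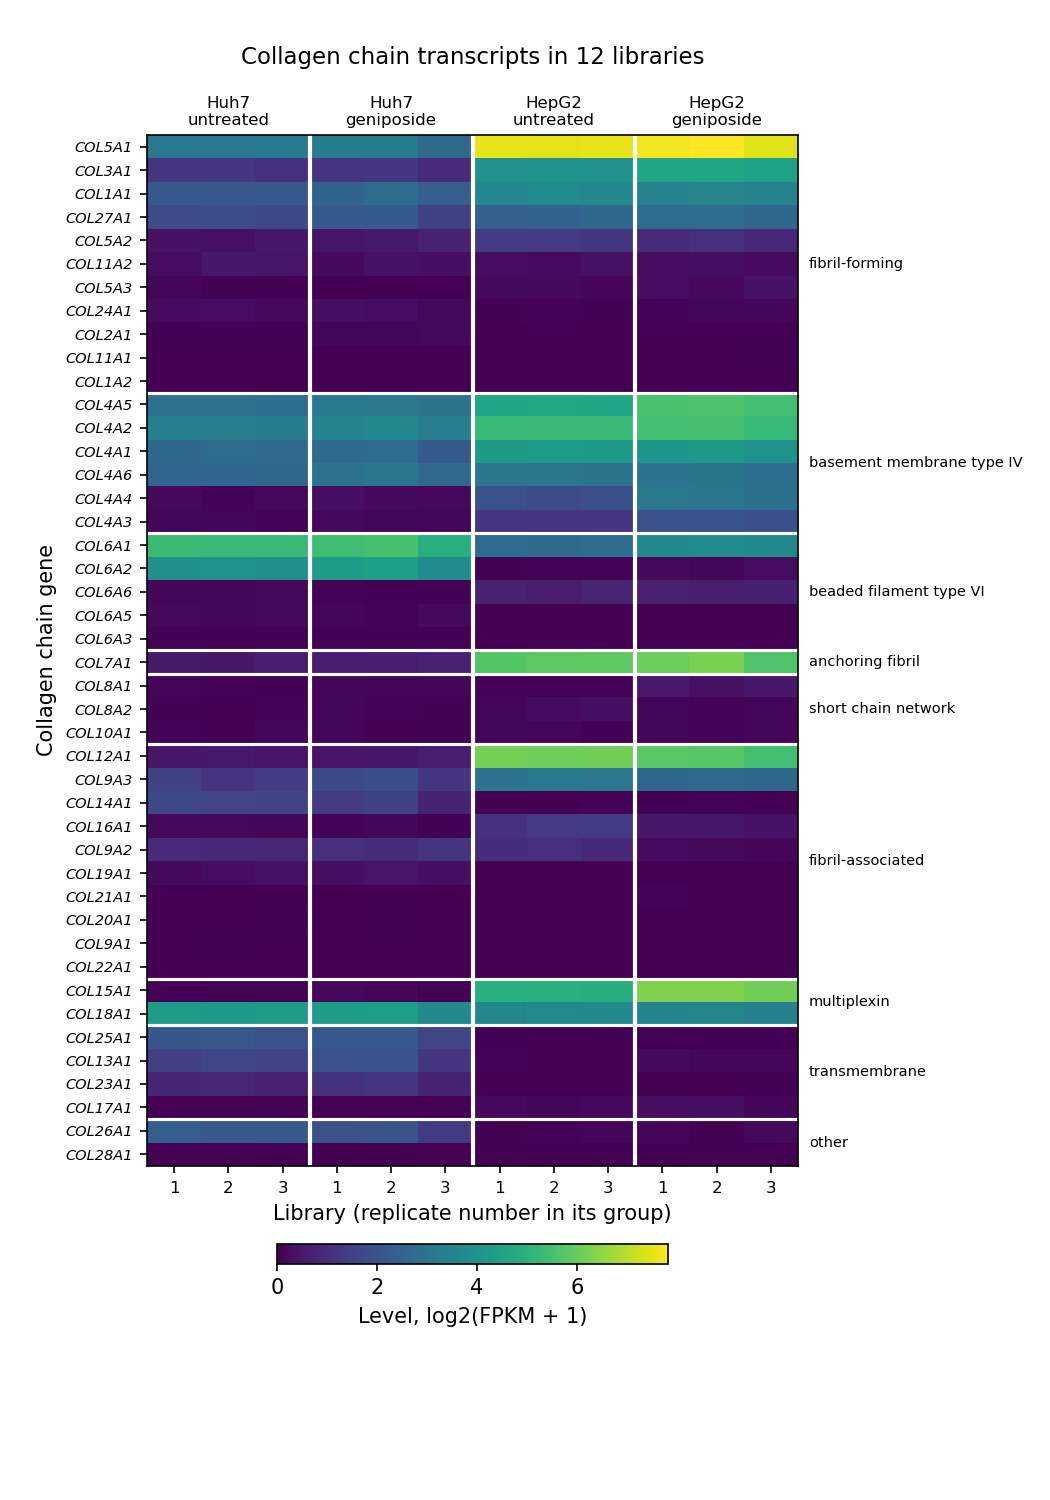
Level of each of the 44 collagen chain genes (rows, grouped by structural class) in each of the 12 libraries (columns, by group and replicate number), coloured by log2(FPKM + 1). COL12A1, COL7A1 and COL15A1 are bright only in the HepG2-labelled libraries, and COL5A1 is brightest there, with a mean of 7.80 FPKM in untreated Huh7-labelled ones. COL6A1 and COL6A2 are brightest in the Huh7-labelled libraries, and 19 rows stay below 1 FPKM in every group mean.

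The lines differed in the amount and in the kind of collagen RNA. The level summed over all 44 genes was 129 ± 1.2 FPKM in untreated Huh7-labelled and 490 ± 3.93 FPKM in untreated HepG2-labelled libraries. The library total used by the authors was 1.09 to 1.10 times the fragment sum in the former and 0.895 to 0.912 times in the latter. That raises the HepG2-labelled FPKM relative to the Huh7-labelled FPKM. With geniposide the total was 1.15 to 1.17 times the fragment sum in the Huh7-labelled and 0.909 to 0.914 times in the HepG2-labelled libraries. In the Huh7-labelled cells this lowers the treated FPKM relative to the untreated FPKM. Shares within a library do not depend on the total. Type VI chains made up 41.0% of the Huh7-labelled sum, led by COL6A1 with 29.6% and COL6A2 with 11.2%, followed by type IV chains with 20.3% and COL18A1 with 14.3%. Fibril-forming chains made up 43.9% of the HepG2-labelled sum, and COL5A1 alone made up 37.2%. Type IV chains followed with 18.6%, COL12A1 with 14.3% and COL7A1 with 11.3%. COL5A1, a chain of type V collagen that is known to regulate fibril diameter, stood above 99.2% of protein-coding genes in untreated HepG2-labelled libraries.

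With geniposide the sum was 147.5, 156.9 and 104.3 FPKM in the Huh7-labelled libraries, on both sides of the untreated ones. In the HepG2-labelled libraries it was 579 ± 62.5 FPKM, with every treated library above every untreated one. There the share of COL15A1 was 5.99% untreated and 13.0% with geniposide, and that of COL12A1 was 14.3% and 8.73%.

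**Figure D2:**
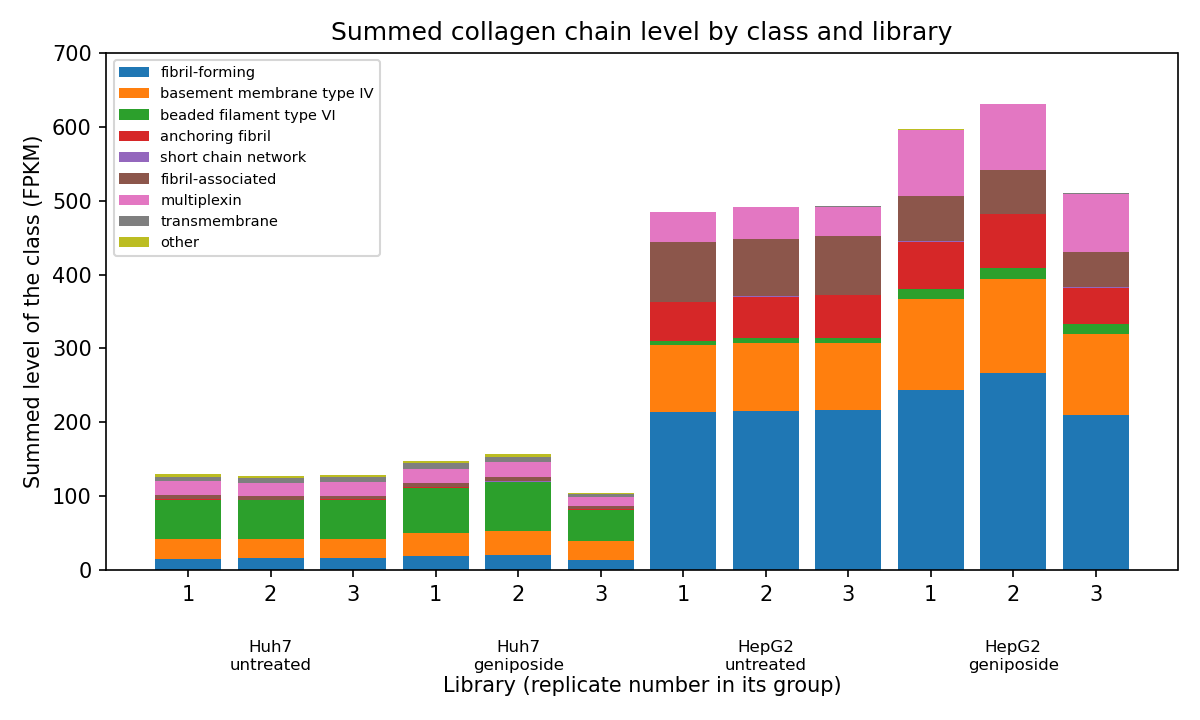
Summed level in FPKM (vertical axis) of the collagen chain genes of each structural class (colours) in each library (bars, by group and replicate number). The HepG2-labelled bars stand near 490 FPKM untreated and between 510.1 and 631.6 FPKM with geniposide, the Huh7-labelled bars between 104.3 and 156.9 FPKM, with type VI (green) the largest part of each Huh7-labelled bar.

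Differences between groups were tested with limma on log2(FPKM + 1), so every log2 change here is on that scale and understates changes of genes near or under 1 FPKM. P-values were adjusted over all genes tested. Of the 44 genes, 24 passed the filter of 1 FPKM in at least 3 libraries, 18 were read from the same model without a filter, and 2 had no fragment to test. A gene that passed only through the line where it is high had to differ between the lines, so the counts between lines are read as a description.

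Untreated HepG2-labelled libraries had 19 of the 42 tested collagen genes higher and 11 lower than untreated Huh7-labelled ones (limma, adjusted p below 0.05). Among all genes with a fragment, 17.7% were higher and 20.5% lower, and among those past the filter 36.1% and 35.8%, or 71.8% in either direction. The median log2 difference was 1.10 over the 24 collagen genes past the filter and -0.01 over all genes past it. All 6 type IV genes, the 5 fibril-forming genes past the filter and COL7A1 were higher in the HepG2-labelled libraries, while both type VI genes past the filter, COL13A1, COL25A1 and COL26A1 were lower. COL9A2 was the only gene past the filter that did not pass this test. Of the 24, 16 had non-overlapping libraries with the HepG2-labelled ones above and 7 with them below, beside 40.1% of all genes in each direction. Rescaling to TPM (the same values made to sum to a fixed total in each library) moved the median over all genes to -0.27 and the higher share of all calls from 50.2% to 36.6%, and the collagen counts of 19 higher and 11 lower were the same.

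On the log2(FPKM + 1) scale the largest of these differences were in COL12A1, COL7A1, COL15A1 and COL5A1, while by the ratio of means COL15A1 (663-fold higher) and COL6A2 (315-fold lower) differed by more than COL12A1. COL12A1, a fibril-associated collagen of tendon and ligament, measured 0.379, 0.462 and 0.339 FPKM without treatment in the Huh7-labelled and 72.4, 67.8 and 69.3 FPKM in the HepG2-labelled libraries, 178-fold higher by the means (log2 difference 5.67, SE 0.092, adjusted p = 8.47e-13). COL7A1, the anchoring fibril chain that ties basement membrane to dermis in skin, stood at 0.464, 0.408 and 0.529 against 51.7, 56.1 and 57.9 FPKM (118-fold, log2 difference 5.26). The groups did not overlap for either gene. In the other direction COL6A2 measured 14.3, 14.7 and 14.3 FPKM in the untreated Huh7-labelled libraries and 0.0250, 0.0612 and 0.0516 FPKM in the HepG2-labelled ones (log2 difference -3.89, adjusted p = 4.33e-10). The HepG2-labelled values of COL6A2 rest on 2 to 5 fragments per library. COL25A1, a transmembrane collagen of neurons, stood at 3.17 ± 0.242 FPKM in untreated Huh7-labelled libraries and had 0 fragments in all 3 untreated HepG2-labelled ones.

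Geniposide was followed by changes in 12 of the 42 tested collagen genes in the HepG2-labelled cells, 7 higher and 5 lower. Of the 24 past the filter, 6 rose and 5 fell, beside 21% and 21.5% of all genes past it. The remaining riser, COL8A1, was below the filter and was read from the unfiltered fit. In that fit 8.82% of all genes with a fragment rose, those past the filter included. The count past the filter, 11 of 24, is near the 42.5% of all genes that changed. The groups did not overlap for 9 of the 24 with the treated libraries above and for 8 with them below, beside 29.4% of all genes in each direction. The median log2 change was 0.07 over the 24 and 0.00 over all genes. Without Huh7-labelled geniposide replicate 3, which enters the estimate of the spread, 8 collagen genes rose and 8 fell, with COL27A1 newly higher and COL4A1, COL18A1 and COL1A1 newly lower (adjusted p = 0.0110, 0.0142, 0.0117 and 0.0384). In that fit 7 of the 24 past the filter rose and 8 fell, beside 4094 and 4236 of all 15319 genes past it. By class, with all libraries, 3 of 6 type IV genes, COL6A1, COL3A1 and COL15A1 rose, and 4 of the 5 fibril-associated genes past the filter and COL5A2 fell. COL16A1 reached 1 FPKM only in the untreated HepG2-labelled libraries, and COL5A2 only in these and in treated replicate 2. For such genes the filter favours a fall, so the counts of genes that fell are read as a description.

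In the Huh7-labelled cells 5 of the 42 passed, 4 higher and 1 lower. Of the 24 past the filter, 3 rose and 1 fell, beside 16.4% and 18.1% of all genes past it, or 34.5% in either direction. The remaining riser, COL2A1, was below the filter and was read from the unfiltered fit, in which 7.35% of all genes with a fragment rose. The groups did not overlap for 4 of the 24 with the treated libraries above and for 3 with them below, beside 21.3% and 22.6% of all genes. Without geniposide replicate 3 the same comparison had 11 of the 42 collagen genes higher and 1 lower. Of the 24 past the filter, 9 were then higher and 1 lower, beside 3403 higher and 3646 lower of all 15319 genes past it. Fitted on the Huh7-labelled libraries alone, limma called 0 collagen genes, and 6 had an unadjusted p below 0.05. In that fit 1524 of all 15518 genes past the filter were higher and 1742 lower. Rescaling to TPM moved the higher share of all calls from 47.5% to 61.6% in the Huh7-labelled and from 49.3% to 58.0% in the HepG2-labelled cells. The collagen counts then were 5 higher and 0 lower, and 7 higher and 3 lower. Of all 15518 genes past the filter, 3260 were then higher and 2031 lower in the Huh7-labelled cells. In the HepG2-labelled cells 3737 were higher and 2701 lower.

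**Figure D3:**
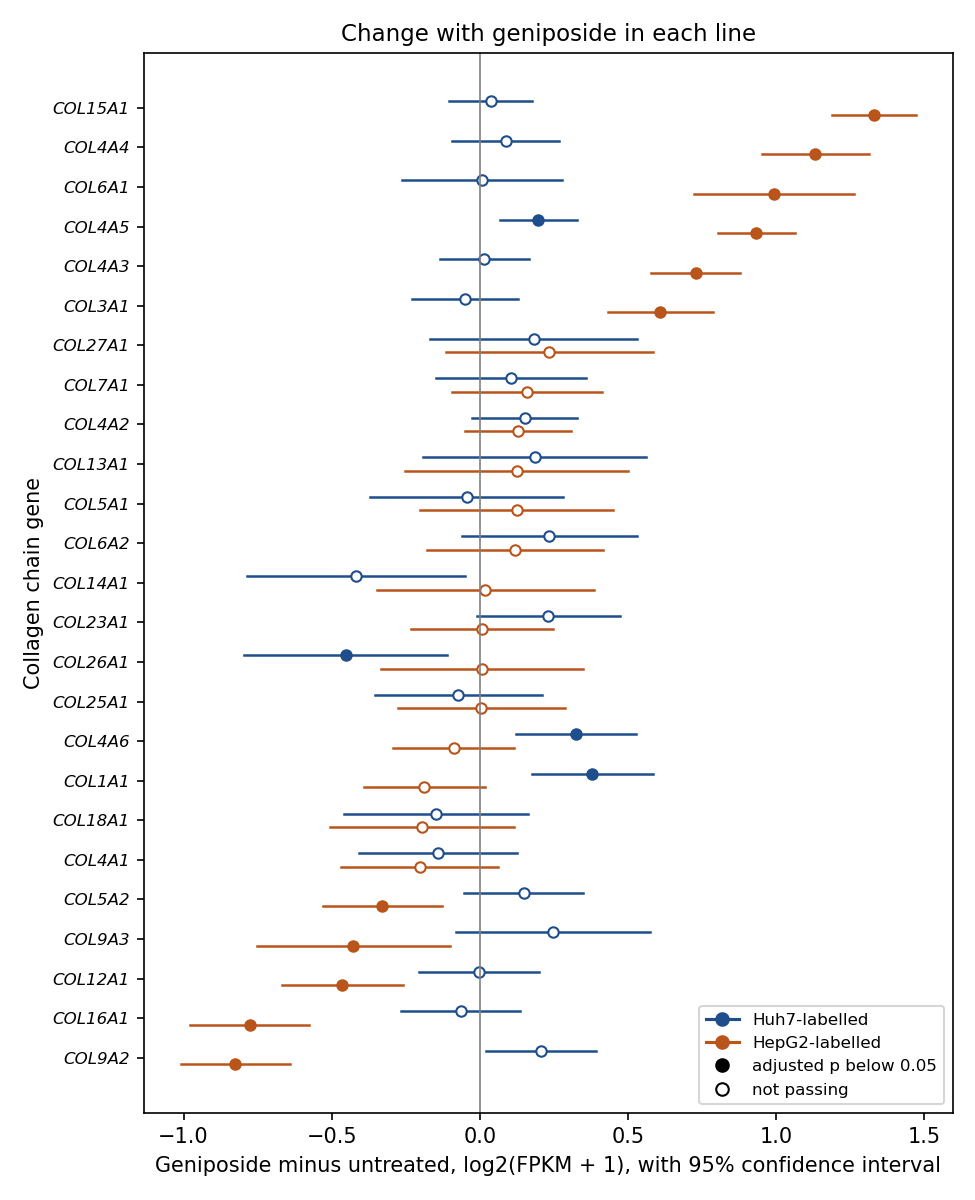
Change with geniposide (treated minus untreated, log2(FPKM + 1), horizontal axis) of the 25 collagen chain genes that reached 1 FPKM in a group mean, with 95% confidence intervals, in Huh7-labelled (blue) and HepG2-labelled (orange) cells. Filled points have an adjusted p below 0.05. In the HepG2-labelled cells 6 of them lie to the right of 0, COL15A1 farthest at 1.33, and 5 to the left, COL9A2 farthest at -0.82.

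Type IV collagen is encoded by 6 genes arranged as head-to-head pairs that are transcribed away from a shared interval. COL4A1 and COL4A2 (chromosome 13) make the network found in nearly all basement membranes. COL4A3 and COL4A4 (chromosome 2) join COL4A5 (chromosome X) in the network of the kidney glomerulus, which is lost in Alport syndrome, and COL4A5 also pairs with COL4A6 in a network of smooth muscle and other epithelia. In the annotation used by the authors' table the COL4A4 and COL4A3 genes start 111 bases apart and COL4A6 and COL4A5 346 bases apart, while COL4A1 and COL4A2 overlap by 1422 bases. Because the kit did not mark strand, fragments in that overlap cannot be told apart between COL4A1 and COL4A2. The sequence between COL4A4 and COL4A3, and the 250 bases next to COL4A5 of the interval it shares with COL4A6, are printed because in the HepG2-labelled cells both genes of the first pair rose and only COL4A5 of the second did. The rest of that second interval, on the side of COL4A6, is neither printed nor searched. Both are the plus strand of GRCh38.p14, from the RefSeq promoter windows, at chr2:227164454-227164564 and chrX:108439588-108439837, and capitals mark the motifs found.

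COL4A4-COL4A3: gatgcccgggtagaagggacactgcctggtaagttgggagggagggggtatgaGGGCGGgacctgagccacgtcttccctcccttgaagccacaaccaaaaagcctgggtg
COL4A6-COL4A5: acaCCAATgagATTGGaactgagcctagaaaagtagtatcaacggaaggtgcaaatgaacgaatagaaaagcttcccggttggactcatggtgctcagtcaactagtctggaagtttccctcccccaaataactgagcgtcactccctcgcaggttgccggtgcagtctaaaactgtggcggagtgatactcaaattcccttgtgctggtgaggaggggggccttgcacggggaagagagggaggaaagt

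The motifs were searched on both strands, and no matches overlapped. They were the CCAAT box (letters CCAAT), the GC box (GGGCGG), the TATA box (letters TATAAA) and the site bound by the factor AP-1 (TGANTCA). The 111 bases between COL4A4 and COL4A3 hold 1 GC box and no other of these motifs, and 42.5% of 22199 RefSeq promoter windows of that length hold a GC box. The 250 bases next to COL4A5 hold 2 CCAAT motifs, 1 on each strand, and none of the others, and 32.7% of windows of that length hold a CCAAT motif. The GC content was 61.3% and 51.2%, beside a median of 62% over promoter windows. A match describes the letters of the window and nothing more.

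COL4A3 and COL4A4 both rose with geniposide in the HepG2-labelled cells. COL4A4 stood at 2.81, 2.56 and 2.76 FPKM untreated and at 7.80, 7.32 and 6.33 FPKM treated, 2.64-fold higher by the means (log2 change 1.13, SE 0.081, adjusted p = 2.68e-06, limma). COL4A3 stood at 1.35, 1.31 and 1.32 FPKM untreated and at 2.80, 3.01 and 2.77 FPKM treated, 2.15-fold higher (log2 change 0.73, SE 0.068, adjusted p = 1.42e-05). For both genes every treated library lay above every untreated one. In the Huh7-labelled libraries COL4A4 was between 0.0648 and 0.250 FPKM and COL4A3 between 0.0596 and 0.123 FPKM, with overlapping groups.

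COL4A5 and COL4A6, the pair on chromosome X, did not move alike in the HepG2-labelled cells. COL4A5 stood at 23.2, 24.0 and 23.5 FPKM untreated and at 46.6, 48.8 and 42.6 FPKM treated, 1.95-fold higher (log2 change 0.93, SE 0.059, adjusted p = 1.11e-06). COL4A6 stood at 7.40, 7.35 and 7.03 against 6.90, 7.23 and 6.21 FPKM, with overlapping groups (log2 change -0.089, adjusted p = 0.492). The ratio of COL4A5 to COL4A6 was 3.25 ± 0.105 untreated and 6.79 ± 0.0650 with geniposide, and the libraries of each group lay close together. Both rose in the Huh7-labelled cells. COL4A6 stood at 4.86, 4.86 and 5.08 FPKM untreated and at 6.79, 7.32 and 5.32 FPKM treated (log2 change 0.32, adjusted p = 0.0194). COL4A5 stood at 6.63, 6.59 and 6.29 against 7.99, 7.73 and 7.11 FPKM (log2 change 0.20, adjusted p = 0.0236). Their ratio was 1.32 and 1.19. Both calls were lost when the Huh7-labelled libraries were fitted alone (adjusted p = 0.107 for COL4A6 and 0.0792 for COL4A5). Leaving out 1 library at a time kept each call in 8 of 12 fits. The calls of COL4A6 were lost without untreated replicates 1 or 2 or geniposide replicates 1 or 2 (adjusted p up to 0.0670), and those of COL4A5 without untreated replicates 2 or 3 or geniposide replicates 1 or 2 (up to 0.0842).

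COL4A1 and COL4A2, the most widely used type IV chains, did not pass the test with geniposide in either line with all libraries. COL4A2 was 37.8 ± 0.742 FPKM untreated and 41.5 ± 4.22 FPKM treated in the HepG2-labelled libraries, and COL4A1 was 18.6 ± 0.489 and 16 ± 1.41 FPKM. The log2 changes were 0.13 and -0.20 (adjusted p = 0.239 and 0.206). COL4A2 passed there in 1 of 12 fits that left out 1 library (adjusted p = 0.0428). Every treated library of COL4A1 lay below every untreated one there, and it passed as lower with the HepG2-labelled libraries fitted alone (adjusted p = 0.0489) or without Huh7-labelled geniposide replicate 3 (0.0142). In the Huh7-labelled libraries COL4A2 was 9.15 ± 0.169 and 10.3 ± 1.07 FPKM and COL4A1 5.44 ± 0.254 and 4.92 ± 1.12 FPKM, and without geniposide replicate 3 COL4A2 passed as higher (adjusted p = 0.0302). The ratio of COL4A2 to COL4A1 was 2.04 ± 0.0235 untreated and 2.59 ± 0.129 treated in the HepG2-labelled and 1.68 ± 0.0843 and 2.15 ± 0.336 in the Huh7-labelled libraries. In both lines every treated library had a higher ratio than every untreated one, and this ratio was not tested.

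**Figure D4:**
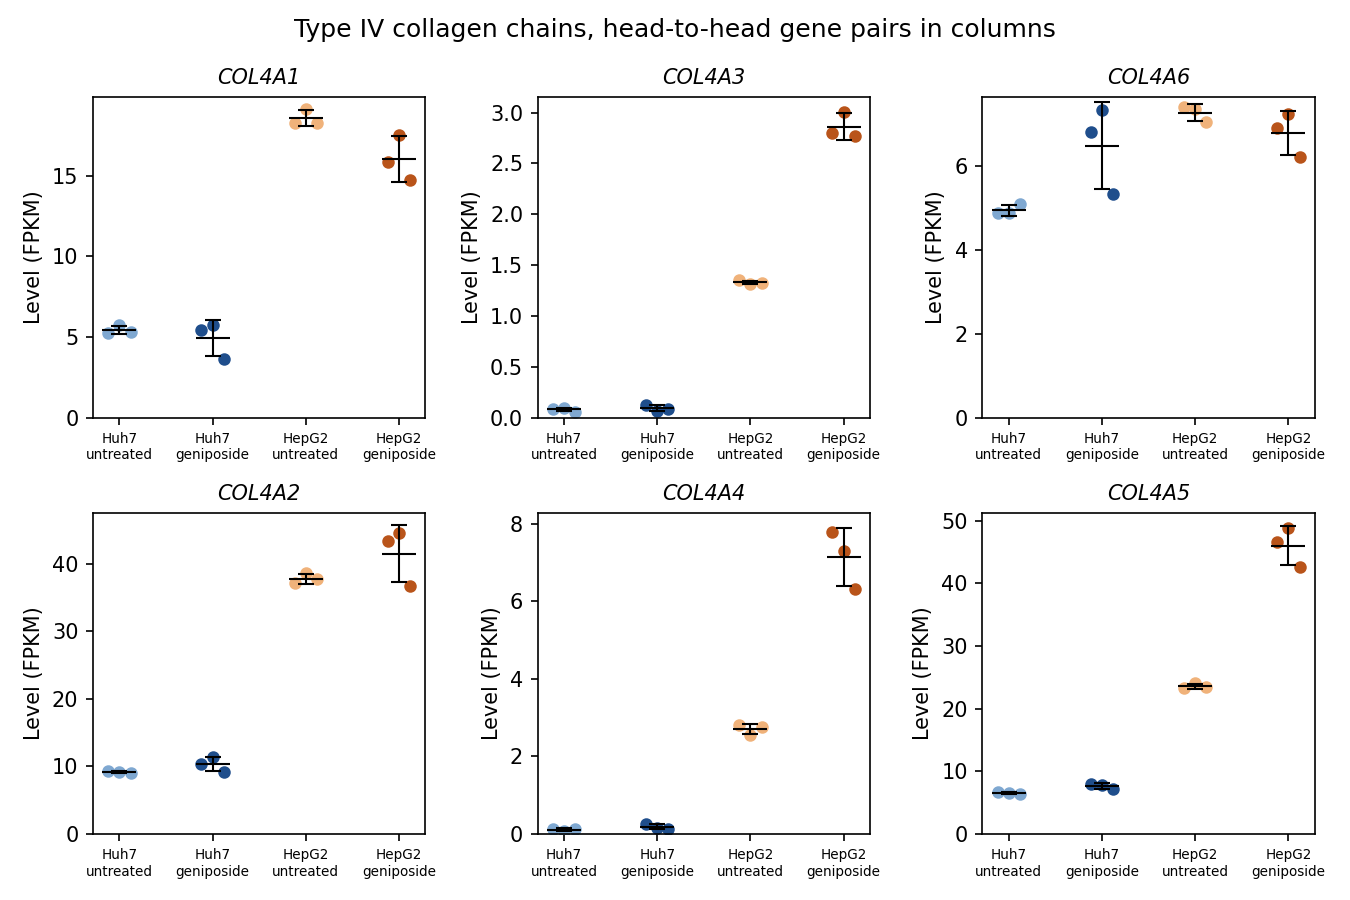
Level in FPKM (vertical axes, each panel from 0 on its own scale) of the 6 type IV collagen genes in the 4 groups; points are libraries, horizontal lines means and error bars SD, and the 2 genes of a head-to-head pair share a column. In the HepG2-labelled cells COL4A3, COL4A4 and COL4A5 rose with geniposide, with treated libraries above all untreated ones, while COL4A6 overlapped.

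Type VI collagen normally contains COL6A1, COL6A2 and a longer chain such as COL6A3. COL6A1 rose in the HepG2-labelled cells from 5.71, 5.56 and 5.91 FPKM to 11.8, 13.1 and 12.3 FPKM, 2.16-fold by the means (log2 change 0.99, SE 0.12, adjusted p = 9.44e-05). The groups did not overlap. Its neighbour on chromosome 21, COL6A2, which starts 93046 bases after the end of COL6A1, was 0.0250 to 0.0612 FPKM untreated and 0.0787 to 0.190 FPKM treated in these libraries, on 2 to 5 and 6 to 16 fragments. All treated libraries of COL6A2 lay above the untreated ones, 2.96-fold by the means, and the change did not pass (adjusted p = 0.535) but did with a pseudocount of 0.1 FPKM (0.0260). In the Huh7-labelled cells COL6A1 was 38.9, 37.2 and 38.6 FPKM untreated and 41.9, 45.5 and 29.7 FPKM treated, and COL6A2 was 14.3, 14.7 and 14.3 against 19.2, 20.6 and 12.8 FPKM. In both genes treated replicates 1 and 2 lay above all untreated libraries and replicate 3 below them. Neither passed the test with all libraries (adjusted p = 0.985 and 0.208), and both did without replicate 3 (log2 change 0.19 and 0.43, adjusted p = 0.0133 and 0.000215). COL6A3 was at most 0.0349 FPKM in any library, COL6A5 at most 0.157 FPKM, and COL6A6 0.668 ± 0.115 FPKM in untreated HepG2-labelled libraries.

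Among the fibril-forming chains COL3A1, the chain of type III collagen found with type I in extensible tissue, rose in the HepG2-labelled cells. It stood at 14.7, 14.9 and 14.4 FPKM untreated and at 23.5, 23.3 and 21.8 FPKM treated, 1.56-fold higher (log2 change 0.61, SE 0.080, adjusted p = 0.000148). COL5A2, which lies tail to tail with COL3A1 on chromosome 2 at a distance of 19149 bases and pairs with COL5A1 in type V collagen, fell there. It stood at 1.44, 1.49 and 1.42 FPKM untreated and at 0.936, 1.08 and 0.840 FPKM treated (log2 change -0.33, adjusted p = 0.0136). The groups overlapped for neither gene, and the call of COL5A2 was lost after rescaling to TPM (adjusted p = 0.0583).

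COL5A1 was the most abundant collagen RNA in the HepG2-labelled libraries and did not pass the test. It stood at 182, 181 and 184 FPKM untreated and at 203, 225 and 171 FPKM treated (log2 change 0.12, 95% confidence interval -0.20 to 0.45). Treated replicate 3 lay below and the other two above the untreated range. The ratio of COL5A1 to COL5A2 was 126 ± 4.03 untreated and 210 ± 6.80 treated. COL27A1, a fibrillar collagen of cartilage, was 4.64 ± 0.390 and 5.63 ± 0.432 FPKM (adjusted p = 0.271).

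COL1A1, the main chain of type I collagen, rose in the Huh7-labelled cells. It stood at 3.46, 3.37 and 3.43 FPKM untreated and at 4.60, 5.77 and 4.02 FPKM treated, 1.40-fold higher by the means (log2 change 0.38, SE 0.092, adjusted p = 0.00904). All treated libraries lay above all untreated ones, and the call held in all 12 fits that left out 1 library, but not with the Huh7-labelled libraries fitted alone (adjusted p = 0.0843). In the HepG2-labelled cells it was 11.4, 12.7 and 11.6 FPKM untreated and 10.05, 10.7 and 10.2 FPKM treated (log2 change -0.19, adjusted p = 0.130). The treated libraries all lay below the untreated ones, and COL1A1 passed as lower with that line fitted alone (adjusted p = 0.0248) or without Huh7-labelled geniposide replicate 3 (0.0384). COL2A1, the cartilage chain, also passed in the Huh7-labelled cells, at 0.0260 to 0.0362 FPKM untreated and 0.0770 to 0.129 FPKM treated, which are 3 to 16 fragments per library (adjusted p = 0.0251, unfiltered fit). That call was lost with voom on recovered fragments (adjusted p = 0.122), with a replicate block (0.0712), in the Huh7-labelled libraries alone (0.102) and without any 1 of the untreated Huh7-labelled libraries (up to 0.0789).

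Of the fibril-associated collagen genes, 4 of the 5 past the filter fell in the HepG2-labelled cells, beside 21.5% of all genes. COL16A1 reached 1 FPKM only in the untreated HepG2-labelled libraries, so it passed the filter through the group where it is high. The count is therefore read as a description. In the limma fit without a filter COL16A1 was lower too (adjusted p = 6.63e-05). COL9A2, a chain of cartilage type IX collagen, stood at 1.02, 1.14 and 0.873 FPKM untreated and at 0.162, 0.134 and 0.106 FPKM treated, 7.54-fold lower by the means (log2 change -0.82, SE 0.083, adjusted p = 2.47e-05). COL16A1, a minor collagen at the surface of fibrils, stood at 1.14, 1.45 and 1.52 FPKM untreated and at 0.420, 0.419 and 0.303 FPKM treated, 3.60-fold lower (log2 change -0.78, SE 0.091, adjusted p = 6.74e-05). Neither gene's groups overlapped. The treated values are low, 7 to 10 fragments per library for COL9A2 and 44 to 57 for COL16A1.

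COL12A1 fell from 72.4, 67.8 and 69.3 FPKM to 55.2, 54.0 and 42.8 FPKM (log2 change -0.46, SE 0.092, adjusted p = 0.00209). COL9A3, the partner of COL9A2, fell from 6.80, 7.95 and 7.63 FPKM to 5.28, 5.40 and 5.17 FPKM (log2 change -0.43, SE 0.15, adjusted p = 0.0375). Treated libraries lay below all untreated ones in both. The call of COL9A3 was kept in 6 of 12 fits that left out 1 library and lost after rescaling to TPM (adjusted p = 0.128) or with a pseudocount of 0.1 FPKM (0.0962). It was lost without Huh7-labelled untreated replicate 3, HepG2-labelled untreated replicates 2 or 3, or any HepG2-labelled geniposide library (up to 0.111). COL9A3 overlaps TCFL5 on the opposite strand, which stood at 29.8 FPKM untreated and 34.4 FPKM treated. The ratio of COL9A3 to COL9A2 was 7.46 ± 1.12 untreated and 40.5 ± 8.10 treated.

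COL14A1, the remaining fibril-associated gene past the filter, was 0.00777 to 0.0572 FPKM in the HepG2-labelled libraries. In the Huh7-labelled cells it was 2.21, 2.14 and 2.03 FPKM untreated and 1.62, 1.91 and 0.672 FPKM treated (adjusted p = 0.0751). COL9A2 was 0.931, 0.831 and 0.788 FPKM there untreated and 1.09, 1.03 and 1.29 FPKM treated (log2 change 0.21, adjusted p = 0.0797), with treated libraries above all untreated ones.

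The multiplexins COL15A1 and COL18A1 are proteoglycans of basement membrane zones whose ends release the fragments restin and endostatin. COL15A1 rose in the HepG2-labelled cells. It stood at 30.1, 29.9 and 28.0 FPKM untreated and at 78.9, 78.4 and 68.7 FPKM treated, 2.57-fold higher (log2 change 1.33, SE 0.064, adjusted p = 2.16e-07). It moved from above 91.4% to above 97.7% of protein-coding genes, and every treated library lay above every untreated one. An antisense gene that overlaps it, AL136084.3, stood at 1.38 FPKM untreated and 0.876 FPKM treated. In the Huh7-labelled libraries COL15A1 was 0.0243 to 0.121 FPKM, 3 to 15 fragments. COL18A1 was 12 ± 0.905 FPKM untreated and 10.3 ± 0.541 FPKM treated in the HepG2-labelled (adjusted p = 0.304) and 18.5 ± 0.524 and 16.9 ± 4.11 FPKM in the Huh7-labelled libraries (adjusted p = 0.461). It overlaps SLC19A1 on the opposite strand, which stood at 5.78 and 3.86 FPKM, and at 9.97 and 7.01 FPKM, in the same groups.

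COL7A1 was 51.7, 56.1 and 57.9 FPKM untreated and 64.6, 73.3 and 49.7 FPKM treated in the HepG2-labelled libraries, with overlapping groups (log2 change 0.16, adjusted p = 0.300). COL7A1 passed there in 1 of 12 fits that left out 1 library (adjusted p = 0.00909). COL8A1, a short chain collagen of vessel walls and of the membrane under the corneal endothelium, rose in the HepG2-labelled cells from 0.0643, 0.0630 and 0.0591 FPKM to 0.443, 0.285 and 0.428 FPKM, from 8 or 9 to 38 to 63 fragments per library (6.20-fold by the means, adjusted p = 0.000266, unfiltered fit). The groups did not overlap. COL26A1, a small secreted collagen first found in testis and ovary, fell in the Huh7-labelled cells from 4.04, 3.52 and 3.56 FPKM to 2.87, 3.13 and 1.53 FPKM (log2 change -0.45, adjusted p = 0.0424). That call was lost in 9 of 12 fits that left out 1 library and after rescaling to TPM (adjusted p = 0.108). It was kept without any 1 of the Huh7-labelled geniposide libraries, at an adjusted p of 0.0332 without replicate 3.

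The transmembrane collagens COL13A1, COL23A1 and COL25A1 were measured at 1 FPKM or more only in Huh7-labelled group means, and none passed the test with geniposide with all libraries. COL13A1, a collagen of the neuromuscular junction, was 1.78, 2.09 and 2.03 FPKM untreated and 2.93, 3.09 and 1.38 FPKM treated. COL23A1 was 0.766, 0.789 and 0.641 against 1.15, 1.33 and 0.671 FPKM. In both, treated replicates 1 and 2 lay above and replicate 3 within or below the untreated range, and both passed without replicate 3 (log2 change 0.44 and 0.37, adjusted p = 0.000938 and 0.00265). COL27A1, COL9A3 and COL4A2 also newly passed without that library (log2 change 0.41, 0.44 and 0.22). COL25A1 was 3.17 ± 0.242 and 3.02 ± 0.793 FPKM.

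Did the effect of geniposide differ between the lines? The difference of effects passed the test for 14 of 42 collagen genes, 7 with a higher and 7 with a lower change in the HepG2-labelled cells. Of the 24 past the filter, 6 were higher and 7 lower, beside 14.1% and 13.7% of all genes past it, or 27.8% in either direction. COL8A1 was the higher gene below the filter, read from the unfiltered fit, in which 5.29% of all genes with a fragment were higher. Without Huh7-labelled geniposide replicate 3 the counts were 7 higher and 11 lower. Of the 24 past the filter, 6 were then higher and 10 lower, beside 3033 and 3065 of all 15319 genes past it. With voom weights on recovered fragments, which compares proportional changes, the collagen counts were 3 higher and 5 lower. Of all 15518 genes past the filter, 1446 were higher and 2132 lower with voom, and the higher share of all calls moved from 50.8% to 40.4%. The 3 higher collagen genes were COL6A1, COL4A5 and COL3A1. For COL15A1, COL4A4 and COL4A3 the difference did not pass with voom (adjusted p = 0.338, 0.319 and 0.0918), and all 3 were below 0.3 FPKM in every Huh7-labelled library. COL1A1 and COL4A6, which passed in the Huh7-labelled cells only, had differences of -0.57 and -0.41 (adjusted p = 0.00934 and 0.0374).

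Genes that modify, fold, trim, cross-link, bind and degrade collagen were read from 9 lists. The counts stand beside 21% of all genes past the filter that rose and 21.5% that fell in the HepG2-labelled cells, and 16.4% and 18.1% in the Huh7-labelled ones, and nothing particular to a list is read from them. In the HepG2-labelled cells 6 of 15 prolyl and lysyl modification genes rose and 3 fell. P4HA2 and P4HA1, catalytic subunits of prolyl 4-hydroxylase, were 13.4 ± 0.455 and 36.1 ± 0.406 FPKM untreated and 31.5 ± 0.482 and 84.3 ± 1.23 FPKM treated (adjusted p = 0.00012 and 0.0131). PLOD1, a lysyl hydroxylase, went from 98.6 ± 1.26 to 167 ± 3.56 FPKM. P4HB, P3H2 and PLOD3 also rose, and P3H3, P3H4 and PPIB fell. In the Huh7-labelled cells 0 of the 15 rose and 2 fell with all libraries, and 7 rose and 3 fell without geniposide replicate 3. Without that library 3403 of all 15319 genes past the filter rose and 3646 fell. Of 13 folding and secretion genes, 2 rose and 2 fell in the HepG2-labelled cells, SERPINH1, the collagen chaperone, among the latter (48.1 ± 3.04 to 38.7 ± 1.88 FPKM), and 4 rose and 1 fell in the Huh7-labelled cells.

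Of 7 cross-linking genes, 3 rose and 2 fell in the HepG2-labelled cells, beside 21% and 21.5% of all genes. LOX and LOXL2, lysyl oxidases, were 34.8 ± 3.07 and 122 ± 4.24 FPKM untreated and 87.5 ± 4.56 and 268 ± 9.93 FPKM treated (adjusted p = 0.00269 and 0.00153). LOXL4 also rose, while TGM2 and LOXL3 fell. LOXL4 was the only 1 of the 7 that passed in the Huh7-labelled cells (0.894 ± 0.228 to 2.42 ± 0.416 FPKM). Of 7 propeptide removal genes past the filter, 3 rose in the HepG2-labelled cells, among them PCOLCE, an enhancer of propeptide cleavage (3.01 ± 0.347 to 5.21 ± 0.541 FPKM), and 1 fell in the Huh7-labelled cells.

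Among 5 collagen receptors past the filter 3 rose in the HepG2-labelled cells, beside 21% of all genes, with ITGA2, the integrin chain that binds fibrillar collagen, from 3.88 ± 0.290 to 9.01 ± 0.658 FPKM. For the Huh7-labelled cells the counts were 1 and 1. Basement membrane partners of type IV collagen were mixed in the HepG2-labelled cells, with 4 of 14 higher and 3 lower, near the shares of all genes (21% and 21.5%): the laminin chain LAMB3 went from 70.4 ± 3.44 to 137 ± 6.18 FPKM, and LAMA1 from 3.79 ± 0.352 to 1.34 ± 0.162 FPKM. NID1, a linker of laminin and type IV collagen, was 52.9 ± 1.55 FPKM in untreated Huh7-labelled and 0.00375 ± 0.00649 FPKM in untreated HepG2-labelled libraries. Of these 14, 3 rose in the Huh7-labelled cells, LAMB2 among them (13.0 ± 0.565 to 23.8 ± 2.63 FPKM). Of 10 interstitial partners past the filter, 4 rose and 1 fell in the HepG2-labelled cells, including the small proteoglycans LUM (35.4 ± 0.169 to 59.5 ± 1.5 FPKM) and DCN (6.32 ± 0.185 to 10.4 ± 0.321 FPKM), which also stand in the list of fibroblast and stellate markers. Of these 10, 1 rose and 2 fell in the Huh7-labelled cells.

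Of 11 collagen breakdown genes past the filter, a list that includes the inhibitors of matrix metalloproteinases, 4 rose and 1 fell in the HepG2-labelled cells (all genes 21% and 21.5%) and 2 rose and 3 fell in the Huh7-labelled cells (16.4% and 18.1%). TIMP1, an inhibitor, went from 128 ± 1.32 to 198 ± 17.2 FPKM in the former and from 49.1 ± 1.27 to 38.4 ± 3.88 FPKM in the latter (difference of effects adjusted p = 0.000169). MRC2, an uptake receptor for collagen fragments, went from 4.50 ± 0.0336 to 9.11 ± 0.462 FPKM in the Huh7-labelled cells. Of 15 genes of the TGF-beta axis past the filter, a known inducer of fibrillar collagen, 8 rose and 3 fell in the HepG2-labelled cells and 3 rose in the Huh7-labelled cells, beside the same shares of all genes. CCN2, a known target of that axis, was among those that fell (2.79 ± 0.306 to 1.03 ± 0.225 FPKM). Without geniposide replicate 3 the Huh7-labelled counts of genes that rose and fell were 4 and 3 for folding and secretion, 4 and 0 for cross-linking, 2 and 1 for propeptide removal and 0 and 1 for receptors. They were 6 and 0 for basement membrane partners, 2 and 3 for interstitial partners, 4 and 3 for breakdown and 4 and 0 for the TGF-beta axis. These counts stand beside 3403 higher and 3646 lower of all 15319 genes past the filter in that fit.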

How the data were processed

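Poly(A) RNA was sequenced from 12 samples of 2 lines. Per the submitters' processing notes CASAVA, fastp and build hg38 were used; their versions, the aligner and the counter are not given here in the sources used. FPKM values were computed by the authors and are used as deposited. Each of the 12 columns was matched to its sample by name. Multiplying FPKM by gene length recovered whole fragments (tolerance 0.05) in 100% of values, and hence the depth of each library, 15056655 to 17211659 fragments; the authors' divisor was 0.895 to 1.17 times the recovered sum. No pair of replicates agreed within sampling noise. Floors are 3 fragments and cover counting error only.

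limma 3.58.1 in R 4.3.3 was fitted on log2(FPKM + 1), a pseudocount of 1, with 4 group means over the 12 samples, 8 residual degrees of freedom, a variance trend and two-sided tests, and p-values were adjusted by Benjamini-Hochberg (threshold 0.05) over all 15518 genes with at least 1 FPKM in at least 3 samples. A gene below that filter was read from the same model over all 35698 genes with a fragment. The script was tested on simulated data. Named genes are the collagen genes with a group mean of 1 FPKM or more, those that passed a test with geniposide, and listed examples. The members, the 13 lists and the tests were chosen with earlier results of these data known. All 164 listed symbols were found, 1 by an older symbol (1 further gene of the TGF-beta list is not reported here), and the positions of all 44 collagen genes matched GENCODE 29. RefSeq held promoter windows for 32 of the 44. Alternatives were another pseudocount, filter, scaling, voom, the line alone, a replicate block and leaving out each library.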

Additional observations from a re-analysis of the deposited data

Results flagged for a closer look

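The change with geniposide differed between the 2 lines for 13 collagen genes that reached 1 FPKM in a group mean, by limma's test of the difference of effects (HepG2-labelled minus Huh7-labelled, log2(FPKM + 1)). The difference was 1.29 for COL15A1, 1.05 for COL4A4, 0.98 for COL6A1, 0.74 for COL4A5, 0.71 for COL4A3 and 0.66 for COL3A1 (adjusted p between 1.06e-05 and 0.00227). It was -1.03 for COL9A2, -0.71 for COL16A1, -0.67 for COL9A3, -0.57 for COL1A1, -0.48 for COL5A2, -0.46 for COL12A1 and -0.41 for COL4A6 (adjusted p between 0.000198 and 0.0374). When 1 library was left out, COL4A6 passed in 2 and COL9A3 in 3 of the 12 fits, and COL12A1 in 9, while the other 10 passed in all 12.

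For 5 of the 13 (COL15A1, COL4A4, COL4A3, COL16A1 and COL12A1) the log2(FPKM + 1) scale holds the Huh7-labelled change near 0, since they were at most 0.50 FPKM in any Huh7-labelled library and passed the filter through the HepG2-labelled ones. Their difference therefore largely restates the HepG2-labelled change. With voom, which compares proportional changes, none of the 5 passed (adjusted p = 0.338, 0.319, 0.0918, 0.194 and 0.227). COL5A2, at 0.279 to 0.628 FPKM in the Huh7-labelled libraries, also passed the filter through the HepG2-labelled ones, and the scale limits its Huh7-labelled change as well. It passed with voom (log2 difference -1.19, adjusted p = 0.0126). COL9A2, at 0.788 to 1.29 FPKM in the Huh7-labelled libraries, passed with voom too (log2 difference -3.34, adjusted p = 4.01e-05).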

How the results depend on the processing

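Over the 4 comparisons, 100 single-gene results under their alternatives gave 1950 values: 1848 kept their side of the threshold, 75 no longer passed and 27 newly passed. The sign changed in 47 of the 1848, all of values that did not pass, and in 0 values that passed in either fit. The Huh7-labelled count of 5 was 3 with the replicate block, 0 in that line alone, and 1 to 12 when 1 library was left out: 2, 1 and 2 without untreated replicates 1, 2 and 3, 3 without geniposide replicate 1 and 12 without geniposide replicate 3. The cause was not tested. The HepG2-labelled count of 12 ranged from 11 to 16, the difference count of 14 from 11 to 18 and the count of 30 between untreated lines from 29 to 31. With voom the difference count was 8. The cause was not tested there either.

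Replicate numbers are shared between groups. Deviations of same-numbered libraries correlated between -0.0615 and 0.0201, beside -0.0466 to 0.0716 for libraries of different number. No pairing was seen, but with 3 libraries a group this check cannot exclude a weak one. With the replicate block the HepG2-labelled count was 11, the difference count 10 and the count between untreated lines 27.

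Depth limits the genes with few fragments (COL2A1, COL8A1, treated COL9A2), and FPKM depends on a library total whose making the sources used here do not give. With 3 libraries a group, the Huh7-labelled comparison turns on which libraries enter, and a gene that did not pass there is not shown to be unchanged.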

Other observations

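Several collagen genes below the filter were detected only or almost only in a single line. COL19A1, a fibril-associated collagen of basement membrane zones, was 0.198 ± 0.0778 FPKM in untreated and 0.278 ± 0.0504 FPKM in treated Huh7-labelled libraries and had 0 fragments in all 6 HepG2-labelled ones. COL6A5 likewise was 0.0595 to 0.157 FPKM in Huh7-labelled libraries, with 0 fragments in HepG2-labelled ones. COL17A1, the transmembrane collagen of hemidesmosomes, was 0.0904 to 0.250 FPKM in the HepG2-labelled and at most 0.00855 FPKM in the Huh7-labelled libraries. These are levels of few fragments, and the comparison rests on counting error as well as on the spread between libraries.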
